A study of Mus musculus with 9 samples.

Results

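The genes described here are 10 targets and modulators of Notch signalling, *Hes1*, *Hey1*, *Hey2*, *Lfng*, *Mfng*, *Rfng*, *Dtx1*, *Nrarp*, *Rbpj* and *Maml1*, out of 37104 loci measured by RNA-seq in primary mouse lung endothelial cells (MLEC). They were taken by gene symbol, and all 10 named a single locus. The series asked how endothelial gene expression depends on the JNK protein kinases, and it held 9 libraries in 3 groups of 3. All mice were C57BL/6J adults of 10 to 12 weeks, and all, controls included, lacked *Mapk10* (labelled Jnk3-/-). The Cre-positive controls (ECtrl) carried Cdh5-Cre with intact *Mapk8* (Jnk1) and *Mapk9* (Jnk2). The Cre-negative controls (EfCtrl) carried both genes as LoxP alleles without Cre. The E3KO cells carried the LoxP alleles together with Cdh5-Cre, a transgene driven by an endothelial promoter. Each library came from its own isolation of cells pooled from the lungs of several mice, selected with ICAM2 beads and kept in culture, so the cells had left the vessel wall before they were measured.

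Notch receptors are cut when a ligand of the Delta or Jagged family on a neighbouring cell pulls on them, and the freed intracellular domain enters the nucleus and joins the DNA-binding protein RBPJ and a Mastermind-like coactivator. This complex turns on repressors of the Hes and Hey family and also regulators that act back on the pathway. In blood vessels, Notch signalling is known for arterial identity and for holding back tip cells during sprouting.

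In E3KO cells the levels of *Hey1* and *Dtx1* fell, and no other member passed the test in either direction. In bulk RNA, fewer cells of a type and less RNA per cell cannot be told apart. Levels are given in FPKM, sequenced fragments scaled to transcript length and to the size of the library. The test was limma on log2(FPKM + 1) across all 9 libraries, with p-values adjusted over the 10605 genes that reached a mean of 2 FPKM in at least 1 group. Against the mean of both control groups, 2 of the 8 members that entered the test were called at an adjusted p under 0.05, both lower, where 4.8% of all tested genes were called (3.26% lower and 1.54% higher). With libraries divided by their median ratio 46.4% of the calls over all genes were higher, in place of 32.0%, and the signs of all 8 tested members stayed the same. *Hey2* and *Rfng* were below the minimum and were compared by exact permutation alone. Of the 8 tested members 6 had a negative difference. The median of the 8 was -0.38 on the log2 scale, beside -0.08 for all tested genes. The share of all tested genes with a negative difference was not computed. Against ECtrl 1 member was called, *Hey1*, where 2.25% of tested genes were called (1.43% lower), and 2 members had an unadjusted p under 0.05, as 20.1% of tested genes did. Against EfCtrl no member was called by limma, 0.952% of tested genes were called, and 3 members had an unadjusted p under 0.05, as 17.7% of tested genes did. Both comparisons share the same 3 E3KO libraries.

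A single E3KO library stood apart. In the library labelled E3KO replicate 1 *Mapk8* was at 20.7 FPKM, above the control range of 14.0 to 17.9, while the other E3KO libraries were at 8.77 and 4.65. *Mapk9* was lower in all 3 E3KO libraries, at 27.6, 35.1 and 20.7 FPKM against 42.7 to 50.9 in the controls. These values cover the whole locus and do not separate transcripts with and without the deleted exons. In the same library 10 symbols took 96.4% of the summed FPKM, against 40.9% to 56.8% in the other 8 libraries. Of tested genes, 39.5% had their lowest value of the 9 libraries there and 20.3% their highest. Results that lead the text are therefore also given without it.

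**Figure D1:**
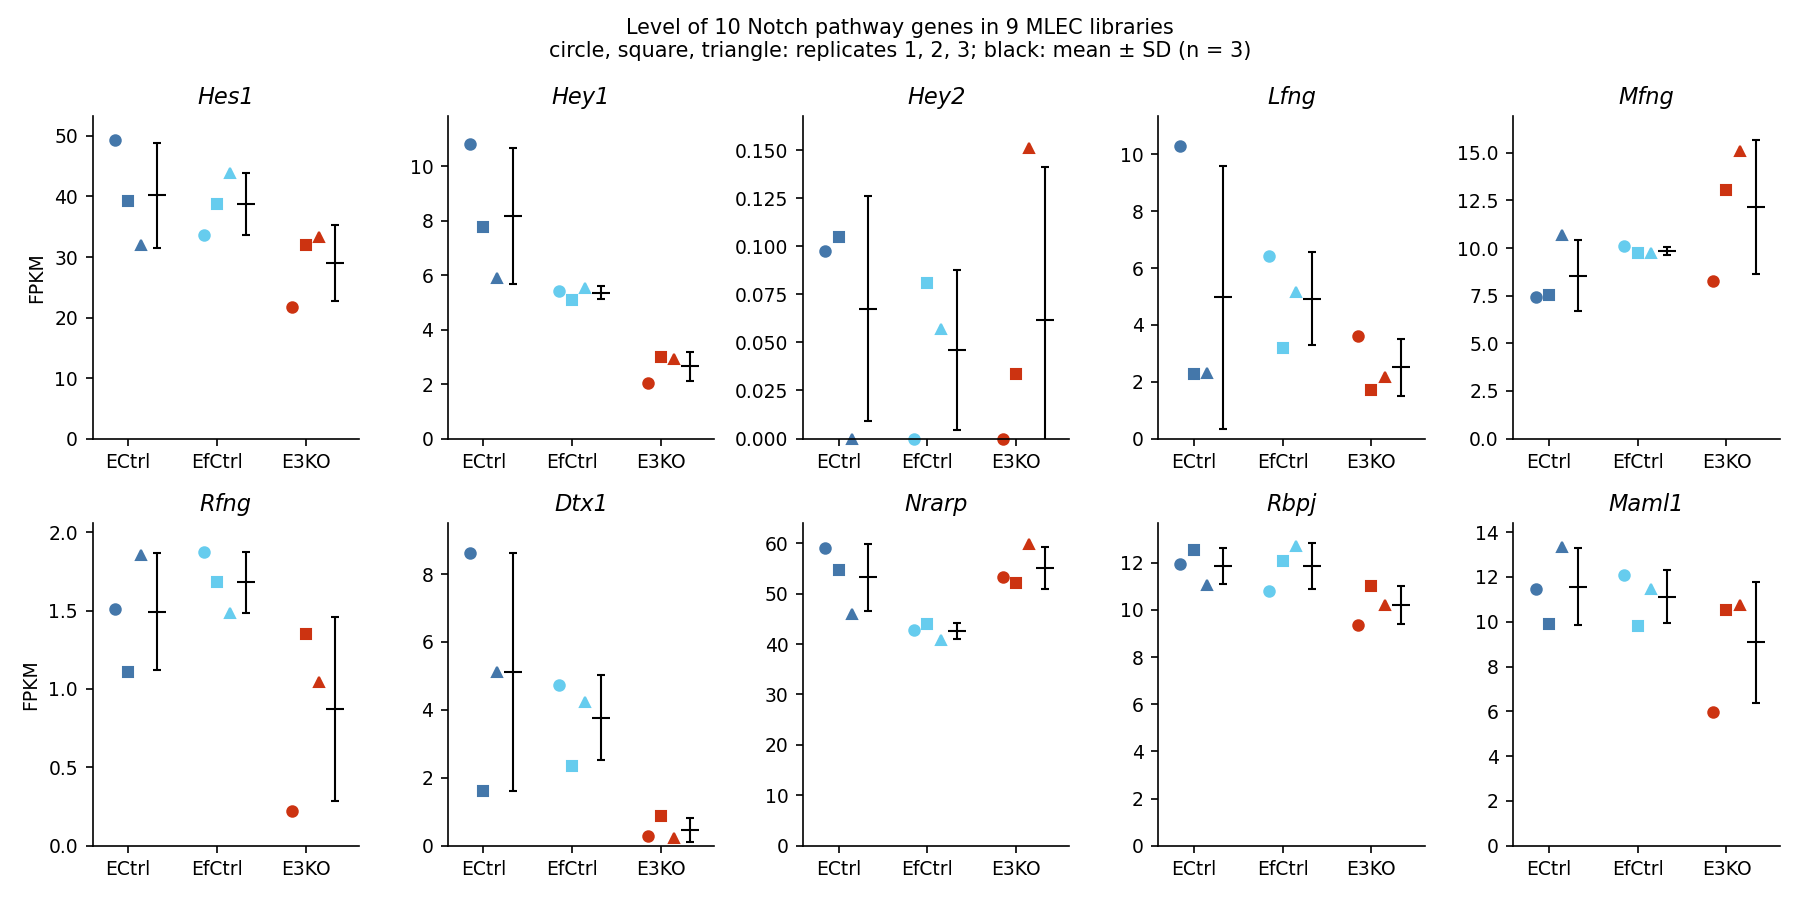
FPKM of the 10 genes on linear axes that start at 0, with a point for each library of ECtrl, EfCtrl and E3KO and the mean ± SD of 3 libraries in black. *Hey1* and *Dtx1* lay below all 6 control libraries in all 3 E3KO libraries, as did 11.5% of tested genes. *Hey2* did not exceed 0.151 FPKM anywhere.

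In control cells the members spanned a wide range of levels. *Nrarp* at 47.9 ± 7.31 FPKM (SD, n = 6) and *Hes1* at 39.5 ± 6.43 FPKM were the most abundant. *Rbpj* at 11.9 ± 0.784 FPKM, *Maml1* at 11.3 ± 1.34 FPKM and *Mfng* at 9.20 ± 1.39 FPKM followed. The feedback regulator and the broadly expressed repressor thus stood above both parts of the nuclear complex. *Hey1* had 6.76 ± 2.21 FPKM, *Lfng* 4.95 ± 3.10 FPKM and *Dtx1* 4.44 ± 2.46 FPKM. *Rfng* was at 1.59 ± 0.286 FPKM, and *Hey2* lay between 0 and 0.105 FPKM. In this order only *Hes1* and *Rbpj*, and *Rfng* and *Hey2*, had control ranges that did not overlap. *Maml1* exceeded *Mfng* and *Dtx1* exceeded *Rfng* in 6 of 6 control libraries, although their ranges overlapped. The other neighbours changed places in at least 1 library, so their order was within the spread. The spread itself differed between members: the control coefficient of variation was 6.61% for *Rbpj*, 32.7% for *Hey1*, 55.4% for *Dtx1* and 62.6% for *Lfng*. The library ECtrl replicate 1 held the highest of the 9 values for *Hes1*, *Hey1*, *Lfng* and *Dtx1*, a place it took for 19.3% of tested genes.

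The Hes and Hey proteins are helix-loop-helix repressors and the best known direct products of Notch activation. *Hey1* (chr3:8663362-8667039, mm10) was at 10.8, 7.77 and 5.91 FPKM in ECtrl and at 5.43, 5.08 and 5.54 FPKM in EfCtrl. In E3KO it was at 2.05, 2.99 and 2.91 FPKM. The 3 E3KO values lay below every control value, and the highest of them was well short of the lowest control at 5.08. The mean fell by 60.8% against the controls, a difference of -1.06 ± 0.17 on the log2 scale (SE, limma adjusted p = 0.0184, 95% interval -1.45 to -0.66). An exact two-sided permutation of the 3 E3KO and 6 control libraries gave p = 0.0119, the smallest that 84 splits allow. All 3 E3KO libraries lay below all 6 controls for 11.5% of tested genes.

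The estimate for *Hey1* was larger against ECtrl than against EfCtrl, and the controls themselves did not differ past the adjusted threshold. Against ECtrl it was -1.30 ± 0.20 (limma adjusted p = 0.0260) and against EfCtrl -0.81 ± 0.20 (limma adjusted p = 0.0989). All 3 EfCtrl values were also below all 3 ECtrl values, as for 4.41% of tested genes, with a difference between the controls of -0.50 ± 0.20 on the log2 scale (limma unadjusted p = 0.0362, adjusted p = 1). Between the controls limma called 0 of 10605 genes, and 195 (1.84%) had an unadjusted p under 0.05. Without the library labelled E3KO replicate 1 *Hey1* kept its call at -0.93 (limma adjusted p = 0.0401). It lost the call against both controls when EfCtrl replicate 1 (adjusted p = 0.0553), EfCtrl replicate 3 (adjusted p = 0.0589) or E3KO replicate 3 (adjusted p = 0.0758) was left out of the limma fit. Against ECtrl alone it lost the call without any of 6 libraries, with limma adjusted p from 0.0511 without E3KO replicate 2 to 0.0975 without E3KO replicate 3. Those 6 were ECtrl replicate 1, all 3 EfCtrl libraries and these 2. Against EfCtrl it gained a call without ECtrl replicate 1 (limma adjusted p = 0.0477).

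*Hes1* (chr16:30064384-30067796), the broadly expressed family member, was at 49.3, 39.3 and 32.0 FPKM in ECtrl, at 33.7, 38.8 and 43.9 in EfCtrl and at 21.7, 32.1 and 33.3 in E3KO. The E3KO values lay below all EfCtrl values, as for 19.8% of tested genes, and apart from replicate 1 they were above the lowest ECtrl value. Its difference of -0.44 ± 0.18 on the log2 scale did not pass the test (limma adjusted p = 0.197, exact permutation p = 0.0595). Without the library labelled E3KO replicate 1 it was -0.25 (limma adjusted p = 0.426). *Hey2* (chr10:30832359-30842801), the partner of *Hey1* in arterial cells, was nearly absent in every group, with a highest value of 0.151 FPKM in E3KO replicate 3 and an exact permutation p of 0.952. Within a library *Hes1* exceeded *Hey1* by 2.09 to 2.78 in log2(FPKM + 1) among the controls and by 2.90 to 3.13 in E3KO. The E3KO values of this difference lay above all control values. This and the 5 other differences between members of a role were formed after the values were seen and are given with no test. They do not depend on how libraries are scaled, apart from the added pseudocount. The share of all gene pairs that separate in this way was not computed. The pairs with *Hey1* and *Dtx1* each hold a gene whose own E3KO values lay below all controls.

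*Dtx1* and *Nrarp* code for regulators that Notch signalling switches on and that act back on it: Deltex 1 is a ubiquitin ligase that binds the Notch intracellular domain, and NRARP is an ankyrin repeat protein that limits the nuclear complex. *Dtx1* (chr5:120680202-120711927) was at 8.61, 1.62 and 5.12 FPKM in ECtrl and at 4.72, 2.35 and 4.24 FPKM in EfCtrl. In E3KO it was at 0.280, 0.872 and 0.215 FPKM. No E3KO library reached the lowest control, ECtrl replicate 2 at 1.62. The mean fell by 89.7%, a difference of -1.81 ± 0.39 on the log2 scale (limma adjusted p = 0.0401, 95% interval -2.69 to -0.92, exact permutation p = 0.0119). The difference was -1.91 ± 0.45 against ECtrl (limma adjusted p = 0.0673) and -1.70 ± 0.45 against EfCtrl (limma adjusted p = 0.114), so it passed the threshold against neither control alone.

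The *Dtx1* call was lost in most fits with a library less. Of the 9 fits that left out a single library, 1 called it, the fit without ECtrl replicate 2 (limma adjusted p = 0.0175). The other 8 gave limma adjusted p from 0.0503, without ECtrl replicate 1, to 0.127, without E3KO replicate 3, and the value without the library labelled E3KO replicate 1 was 0.0851 with a difference of -1.73. The log2 difference stayed between -2.06 and -1.59 in all 9 fits. Because the E3KO values lie under 1 FPKM, the added 1 FPKM compresses the difference, and with 0.1 FPKM in its place it was -3.03 (limma adjusted p = 0.0320). With no FPKM minimum the call was lost (limma adjusted p = 0.0829).

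**Figure D2:**
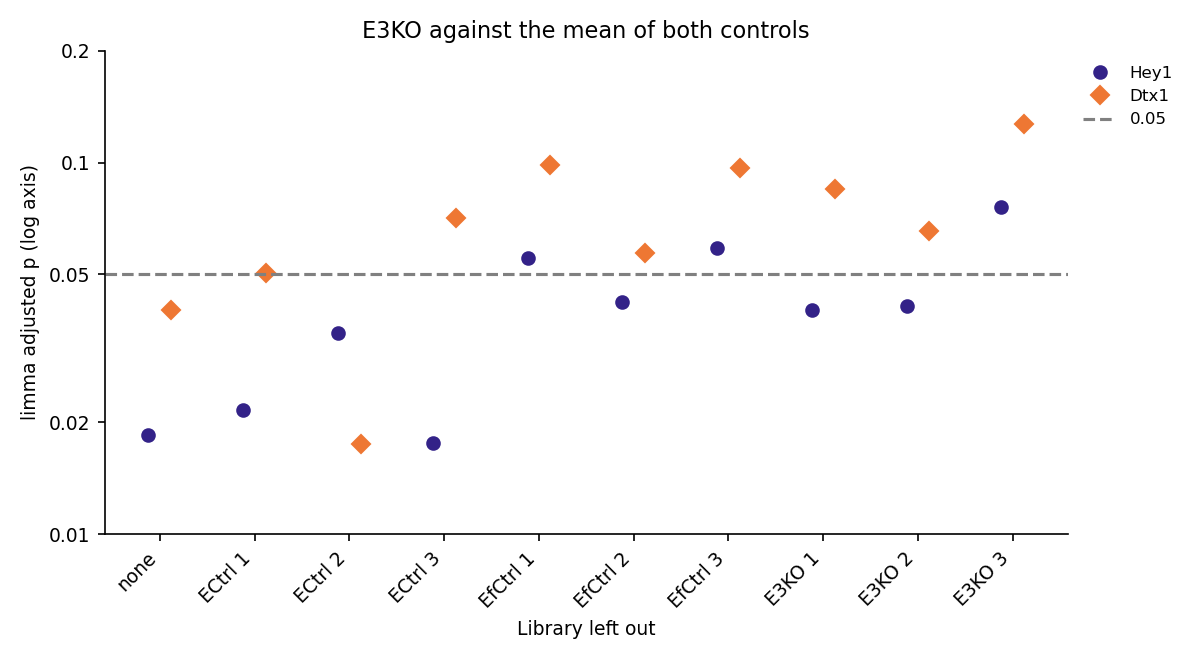
Adjusted p from limma, on a log axis, for *Hey1* (circles) and *Dtx1* (diamonds) in E3KO against the mean of both controls, with all 9 libraries (none) and with each library left out in turn. *Hey1* stayed under the dashed line at 0.05 in 6 of 9 fits and *Dtx1* in 1 of 9.

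*Nrarp* (chr2:25180758-25183330) had a difference of the opposite sign, which did not pass the test. It was at 59.1, 54.7 and 45.9 FPKM in ECtrl, at 42.7, 44.0 and 40.8 FPKM in EfCtrl and at 53.3, 52.1 and 59.9 FPKM in E3KO. The E3KO values overlapped those of ECtrl, with the highest of all 9 in E3KO replicate 3, and lay above all 3 EfCtrl values. All EfCtrl values lay below all ECtrl values, as for 4.41% of tested genes. Against both controls its difference was 0.21 ± 0.11 on the log2 scale, with a 95% interval of -0.03 to 0.45 (limma adjusted p = 0.268). Against EfCtrl it was 0.36 ± 0.12 (limma adjusted p = 0.186), where all E3KO libraries lay above all EfCtrl libraries for 9.37% of tested genes. Against ECtrl it was 0.05 ± 0.12 (limma adjusted p = 0.830). In the annotation an antisense gene, Gm38287, lies over *Nrarp* and shares 77.8% of its 40-base stretches. Strand use in counting is not given in the sources used here, so reads of these genes may not be told apart. The difference between *Nrarp* and *Dtx1* in log2(FPKM + 1) was 2.64 to 4.41 in the control libraries and 4.82 to 5.65 in E3KO, without overlap. This pair was formed after the values were seen, and *Dtx1* by itself already lay below all controls. The share of all gene pairs that separate in this way was not computed.

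**Figure D3:**
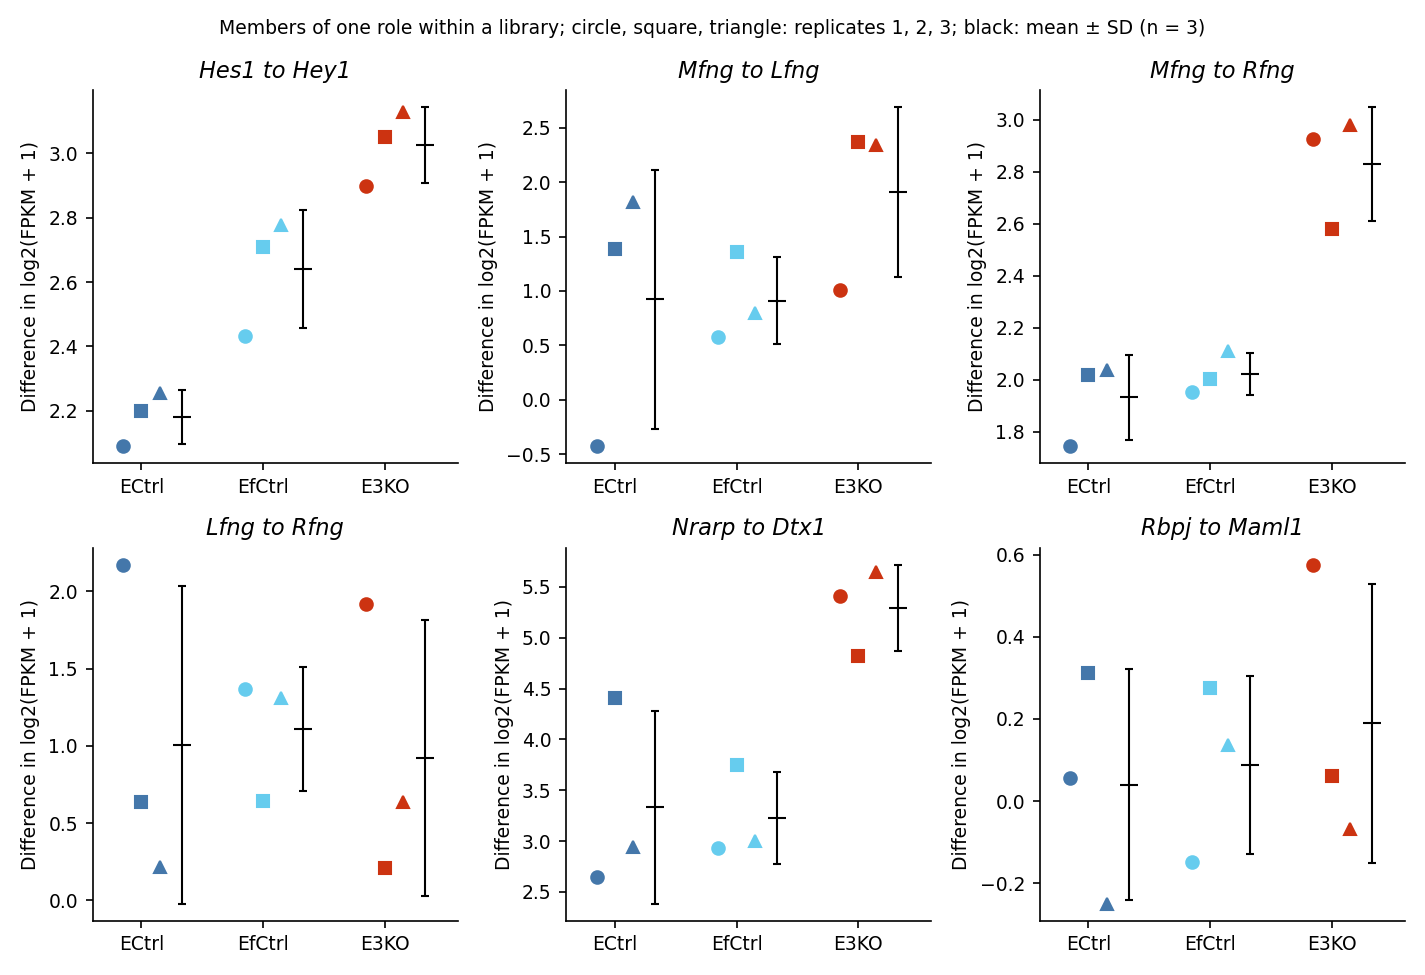
Difference in log2(FPKM + 1) within each library for 6 pairs of members that share a role, with a point per library and the mean ± SD of 3 libraries in black. The 3 E3KO points lie above all 6 control points for *Hes1* to *Hey1*, *Mfng* to *Rfng* and *Nrarp* to *Dtx1*, and they overlap the controls for *Mfng* to *Lfng*, *Lfng* to *Rfng* and *Rbpj* to *Maml1*. The share of all gene pairs that separate in this way was not computed.

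The Fringe enzymes add N-acetylglucosamine to O-fucose on Notch receptors and so tune which ligands the receptors answer to. *Lfng* (chr5:140607341-140615543) was at 10.3, 2.27 and 2.32 FPKM in ECtrl, at 6.42, 3.20 and 5.16 in EfCtrl and at 3.61, 1.72 and 2.17 in E3KO. A single library, ECtrl replicate 1, lay far above the other ECtrl libraries, and E3KO and the controls overlapped. The log2 difference was -0.65 ± 0.41 (limma adjusted p = 0.367, exact permutation p = 0.190), with a 95% interval of -1.60 to 0.30 that spans both a large decrease and a small increase. Without ECtrl replicate 1 it was -0.35 (limma adjusted p = 0.430), and against ECtrl alone the sign then turned, from -0.54 to 0.05.

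*Mfng* (chr15:78755882-78773475) was at 7.41, 7.54 and 10.7 FPKM in ECtrl, at 10.1, 9.74 and 9.72 in EfCtrl and at 8.27, 13.1 and 15.1 in E3KO. Replicates 2 and 3 of E3KO were above all controls, and replicate 1 lay among them. The log2 difference was 0.34 ± 0.19 (limma adjusted p = 0.306, exact permutation p = 0.107). It was 0.57 without the library labelled E3KO replicate 1 (limma adjusted p = 0.0718) and 0.17 without E3KO replicate 3 (limma adjusted p = 0.605). *Rfng* (chr11:120780746-120784207) was at 1.51, 1.11 and 1.86 FPKM in ECtrl, at 1.87, 1.68 and 1.48 in EfCtrl and at 0.219, 1.35 and 1.04 in E3KO. All 3 E3KO values were below all EfCtrl values, where 19.8% of tested genes did so, but replicate 2 lay above ECtrl replicate 2. The exact permutation p against 6 controls was 0.0238, unadjusted. The lowest *Rfng* value was that of E3KO replicate 1, and no permutation was made without that library. The difference between *Mfng* and *Rfng* in log2(FPKM + 1) was 1.74 to 2.11 in the controls and 2.58 to 2.98 in E3KO, without overlap. This pair too was formed after the values were seen, with no share of all gene pairs computed. With *Rfng* below 2 FPKM in every library, the added 1 FPKM weighs on this difference. The differences between *Mfng* and *Lfng* and between *Lfng* and *Rfng* overlapped between E3KO and the controls.

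*Rbpj* and *Maml1* code for the DNA-binding and coactivator parts of the nuclear complex. *Rbpj* (chr5:53555779-53657445) was the steadiest member, at 12.0, 12.5 and 11.1 FPKM in ECtrl, at 10.8, 12.1 and 12.7 in EfCtrl and at 9.38, 11.0 and 10.2 in E3KO. All E3KO values lay below all ECtrl values, as for 15.9% of tested genes, and replicate 2 of E3KO lay above EfCtrl replicate 1. Its difference was -0.20 ± 0.10 on the log2 scale (limma adjusted p = 0.249, 95% interval -0.42 to 0.02, exact permutation p = 0.0357). With libraries divided by their median ratio it was -0.11. A pseudogene, Rbpj-ps3, shares 10.0% of the 40-base stretches of its transcripts. *Maml1* (chr11:50236469-50292311) was at 11.5, 9.92 and 13.3 FPKM in ECtrl, at 12.1, 9.79 and 11.5 in EfCtrl and at 5.97, 10.5 and 10.8 in E3KO. The low value was that of E3KO replicate 1, and the other E3KO values lay among the controls. The log2 difference was -0.32 ± 0.19 (limma adjusted p = 0.324, exact permutation p = 0.119). Without the library labelled E3KO replicate 1 it was -0.077 (limma adjusted p = 0.761). The difference between *Rbpj* and *Maml1* in log2(FPKM + 1) was -0.25 to 0.31 in the controls and -0.07 to 0.58 in E3KO, and these ranges overlapped. The files place *Maml1* in a merged region with the neighbouring gene Ltc4s. Among the 8 tested members, *Hes1*, *Hey1*, *Rbpj* and *Maml1* had their lowest value of all libraries in E3KO replicate 1, as did 39.5% of tested genes.

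**Figure D4:**
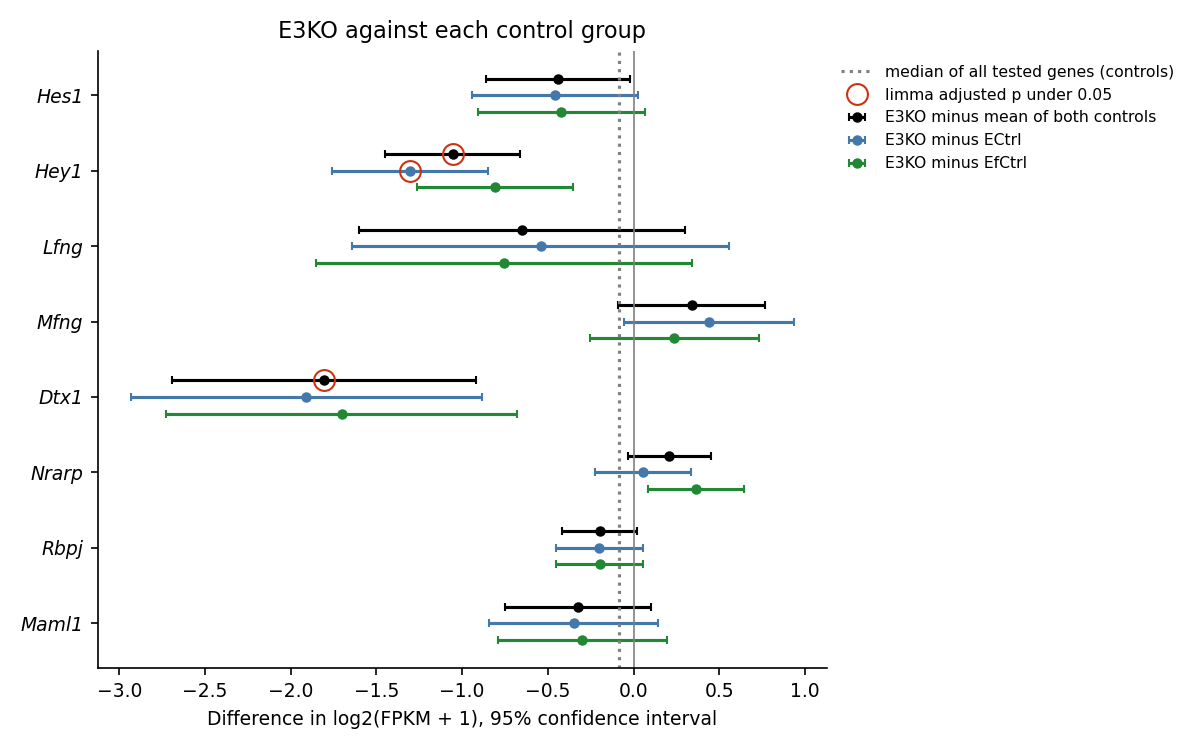
Difference in log2(FPKM + 1) between E3KO and the mean of both controls (black), ECtrl (blue) and EfCtrl (green) for the 8 tested genes, with 95% intervals from limma. Red circles mark adjusted p under 0.05, and the dotted line is the median of 10605 tested genes at -0.08. *Hey1* and *Dtx1* lie farthest to the left, and the intervals of the other members against both controls, apart from that of *Hes1*, include 0.

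The promoters of *Nrarp* and *Lfng* are shown because these known Notch targets had differences of opposite sign in E3KO, neither of which passed the test, and both windows hold letters that Hes and Hey proteins are known to bind. Promoter windows of 250 bases before the RefSeq start site (GRCm38.p6, the build of the files) were matched for 7 of 10 members, and *Hey1*, *Hes1* and *Mfng* had none. The letters of 4 motifs were searched on both strands: the core bound by RBPJ, TGGGAA, the AP-1 site TGANTCA bound by JUN, the site CACGTG and the N box CACNAG. Capitals mark matches, read 5′ to 3′ on the strand of the gene. The *Nrarp* window is chr2:25180508-25180757 on the plus strand, up to the base before the start site. The *Lfng* window is chr5:140607091-140607319 on the plus strand, and it ends 22 bases before the start site, where the GENCODE exon begins.
Nrarp: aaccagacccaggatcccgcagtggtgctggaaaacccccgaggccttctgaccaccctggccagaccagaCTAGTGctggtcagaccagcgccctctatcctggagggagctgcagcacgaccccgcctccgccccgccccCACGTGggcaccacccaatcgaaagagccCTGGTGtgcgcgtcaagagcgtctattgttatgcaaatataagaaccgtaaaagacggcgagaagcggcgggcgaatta
Lfng: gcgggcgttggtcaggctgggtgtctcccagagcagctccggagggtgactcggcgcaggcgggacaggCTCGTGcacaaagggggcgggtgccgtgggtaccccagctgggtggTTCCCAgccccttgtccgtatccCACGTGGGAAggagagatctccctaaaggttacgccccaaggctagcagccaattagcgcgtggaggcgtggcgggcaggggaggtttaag
In *Nrarp* the site CACGTG began at position -108 from the start site, and N box letters on the opposite strand began at -179 and -79. In *Lfng* the RBPJ core stood at -108 and, on the opposite strand, at -135, and CACGTG at -112 overlapped the first of these. Among the 7 members the RBPJ core was found in *Lfng*, *Rbpj* and *Hey2*, CACGTG in *Nrarp* and *Lfng*, and the N box in *Nrarp*, *Lfng*, *Dtx1* and *Rfng*. No window of a member held the AP-1 letters, and the *Maml1* window held none of these motifs. The *Dtx1* window lay with all 250 bases in GENCODE exons, as did 1 *Rbpj* window, and the other *Rbpj* window had 132 bases in them. For *Dtx1* the match and the lack of others thus describe exon sequence. Of all 32851 promoter windows, 21.6% held the RBPJ core, 6.75% the AP-1 letters, 6.02% CACGTG and 36.7% the N box. A match of letters is not evidence of binding.

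Around these members, 58 other genes of the pathway were listed, 45 were tested, and limma called none against the mean of both controls, with 12 at an unadjusted p under 0.05 where 23.8% of all tested genes were. Of the 45, 31 had a negative difference. The median of the 45 was -0.17 on the log2 scale, beside -0.08 for all tested genes. How many of all tested genes had a negative difference was not computed. All 3 E3KO libraries lay below all controls for 7 of the 45 and above them for 2, where 11.5% and 5.18% of all tested genes did so.

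Among the ligands and receptors of endothelium, *Dll4*, the Delta ligand of arterial and tip cells, was at 9.67, 6.52 and 9.68 FPKM in ECtrl, at 9.40, 6.65 and 7.05 in EfCtrl and at 3.13, 5.24 and 5.53 in E3KO. No E3KO value reached the lowest control at 6.52, a separation seen for 11.5% of tested genes. The log2 difference was -0.71 ± 0.20 and did not pass the adjusted threshold (limma adjusted p = 0.0783, exact permutation p = 0.0119). Without the library labelled E3KO replicate 1 it was -0.50 (limma adjusted p = 0.158). *Notch1*, *Notch4*, *Jag1* and *Dll1* overlapped between E3KO and the controls. *Notch1* went from 9.23 ± 0.758 (SD, n = 6) to 8.65 ± 1.34 FPKM (n = 3) at a limma adjusted p of 0.627, and *Notch4* from 9.01 ± 2.44 to 10.6 ± 1.26 FPKM at an adjusted p of 0.509. *Jag1* went from 14.9 ± 1.10 to 13.4 ± 2.92 FPKM (limma adjusted p = 0.495) and *Dll1* from 2.55 ± 0.815 to 3.15 ± 0.746 FPKM (limma adjusted p = 0.497).

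Outside the naming rule, and picked after their values were seen, 6 more genes of the list lay below all controls in all E3KO libraries, *Notch2*, *Adam17*, *Maml2*, *Numbl*, *Hes6* and *Bhlhe40*, and *Maml3* and *Sel1l* lay above them. The value of *Numbl* was that of a locus that also names *Adck4*. The receptor *Notch2* was at 12.6 ± 1.54 FPKM in the controls and 7.53 ± 2.46 in E3KO (limma adjusted p = 0.0714). The coactivator *Maml2* was at 8.49 ± 0.485 and 5.10 ± 2.02 FPKM (limma adjusted p = 0.0933), and its relative *Maml3* at 1.66 ± 0.237 and 2.61 ± 0.446 FPKM (limma adjusted p = 0.0733). The Mastermind-like genes thus had differences of both signs, and none passed the adjusted threshold. *Hes2*, *Hes5* and *Helt* were listed at 0 in every library, and *Heyl*, *Hes3* and *Hes7* had means under 0.1 FPKM in the controls and in E3KO.

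**Figure D5:**
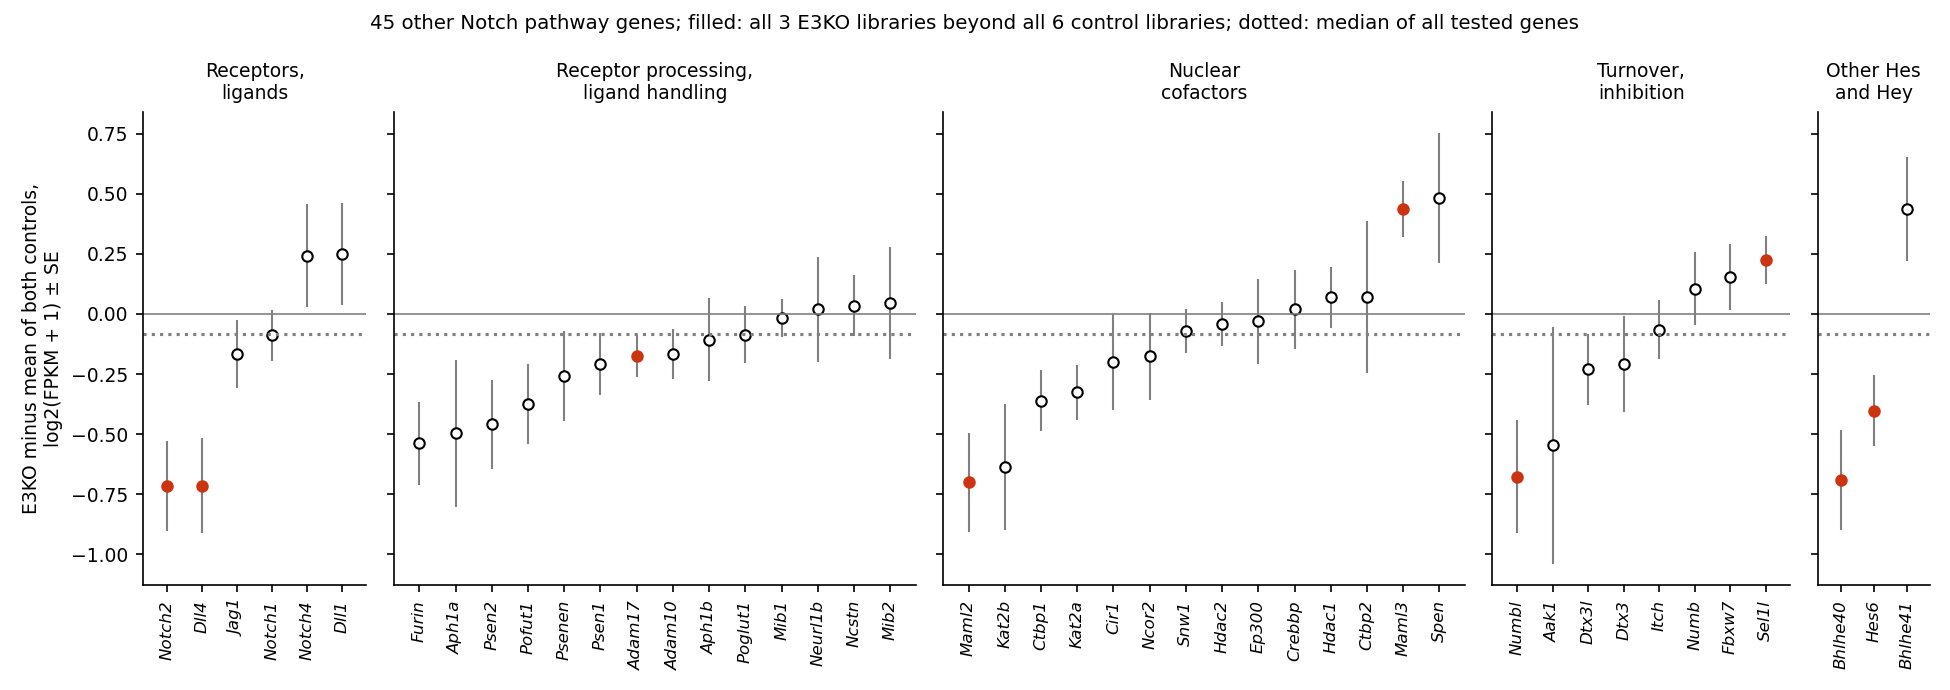
Difference in log2(FPKM + 1) between E3KO and the mean of both controls, ± SE, for the 45 other Notch pathway genes that were tested, in panels by role. Filled points are genes whose 3 E3KO libraries all lie beyond all 6 control libraries, 7 below and 2 above, and the dotted line is the median of all tested genes at -0.08.

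The genes whose pattern was most like that of *Hey1* over the 9 libraries, by Pearson correlation of log2(FPKM + 1), were *Luc7l3* (r = 0.983), *1700025G04Rik* (r = 0.982) and *Cpsf7* (r = 0.980). For *Dtx1* they were *Rasgrp2* (r = 0.991), *Prkcdbp* (r = 0.990) and *Snx9* (r = 0.985). These correlations describe points that share group and library, and for each of the 6 genes all E3KO values lay below all control values.

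The defining endothelial markers *Pecam1* and *Cdh5* were high in every group. Of 10 pan-endothelial markers none was at 0 in all libraries and 9 were tested, and their summed level was 2989 to 3728 FPKM in the controls and 3667 to 4118 FPKM in E3KO. *Emcn*, which codes for the endothelial sialomucin endomucin and is part of this sum, rose from 973 ± 105 to 1495 ± 54.7 FPKM (SD, limma adjusted p = 0.0260), and no other gene of the list was called. *Vwf* was below the minimum, at 1.59 ± 0.488 FPKM in the controls. The lymphatic list summed to 2467 to 3341 FPKM in the controls and 2275 to 2566 FPKM in E3KO. Of this, *Lyve1* alone held 1534 to 2050 FPKM in the controls and 1513 to 1728 FPKM in E3KO. All 7 genes had negative differences, and 3 were called lower, *Prox1*, *Reln* and *Ccl21a*, where 3.26% of tested genes were called lower. The defining gene *Prox1* was expressed in every library, and fell from 134 ± 15.4 to 67.3 ± 10.8 FPKM (SD, limma adjusted p = 0.0131). The arterial list of 7 summed to 227 to 340 FPKM in the controls and 235 to 313 FPKM in E3KO, and *Gja4*, a connexin of arterial endothelium, fell. The other 5 tested genes of the arterial list were not called and had differences of both signs, with *Gja5* at -0.97 and *Sox17* at 0.57 on the log2 scale (limma adjusted p = 0.0733 for both). The next lists mark cells other than endothelium. Only 4 of 10 mural and fibroblast, 3 of 9 leukocyte and 2 of 7 epithelial genes entered the test. None of these was called in E3KO against both controls. A limma unadjusted p under 0.05 was reached by 3 of the 4 mural and fibroblast genes and by all 3 leukocyte genes, as by 23.8% of tested genes. All 4 tested mural and fibroblast genes had negative differences, and all 3 tested leukocyte genes positive ones. The mural and fibroblast list of 10, of which 5 were under 1 FPKM throughout, summed to 9.89 to 71.1 FPKM in the controls and 8.72 to 15.1 FPKM in E3KO. The leukocyte list of 9, with *Cd3e* at 0 in all libraries, summed to 42.4 to 133 FPKM in ECtrl, 133 to 230 in EfCtrl and 162 to 286 in E3KO. The epithelial list of 7 summed to 2.43 to 6.05 FPKM in the controls, to 51.5 FPKM in E3KO replicate 1 and to at most 4.50 FPKM in the other E3KO libraries. In E3KO replicate 1 *Scgb1a1* alone was at 46.2 FPKM. *Epcam* at 1.79 and *Sftpc* at 1.35 FPKM also exceeded all controls there, while *Cdh1*, *Krt8*, *Krt18* and *Krt19* lay within the control range. The part of these cell types in the *Hey1* and *Dtx1* results was not tested.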

How the data were processed

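RNA-seq was performed on 9 MLEC libraries from separate isolations. Reads were mapped to mm10 (TopHat2), and what the authors deposited is the FPKM of each locus in each library, estimated by Cufflinks (version 1.0.3 per the submitters' processing notes). The authors' group means, fold changes, p-values and q-values from Cuffdiff were not used. The fragments behind each value are not in the deposited FPKM, so no counting interval was derived.

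Of 37104 loci, 3749 shared a symbol and were left out. A locus that names several genes was kept, as for *Numbl* (with *Adck4*), *Ctbp2* (with *Fgfr2*) and *Egfl7* (with *Fam69b* and *Gm20532*). The 10605 genes with a mean of 2 FPKM in any group were fitted on log2(FPKM + 1) with limma 3.58.1 (R 4.3.3), default moderation and Benjamini-Hochberg adjustment. On simulated data made from these 10605 genes for E3KO against the mean of both controls, it called 77% of genes changed by 1 on the log2 scale, 93% of those changed by 2 and 17 unchanged genes. The simulated noise was drawn separately for each gene and library, with no shift shared by the genes of a library. These rates may therefore not hold for the deposited values. Members were also permuted over libraries, exactly and two-sided, on the absolute difference in means, and with 3 against 3 the smallest p is 0.1.

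The members and lists were chosen with earlier results of these data known. Genes named were the members, the targeted genes, endothelial ligands and receptors, called pathway genes and the 3 tested genes most like *Hey1* and *Dtx1*. Annotation was GENCODE M21, and shared sequence was counted as 40-base stretches found in transcripts of other genes. Alternatives were a pseudocount of 0.1, no FPKM minimum, a mean-variance trend, centring, a replicate block, each library left out and, added after seeing the data, division by median ratios.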

Additional observations from a re-analysis of the deposited data

How the results depend on the processing

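Fits that kept all libraries gave the same direction for every tested member, and *Hey2*, near 0 throughout, turned to -0.0049 with a pseudocount of 0.1. Without an FPKM minimum 95 genes were called against ECtrl (239 in the reported fit), 17 against EfCtrl (101), 1 member (*Hey1*, with *Dtx1* lost) and 1 other pathway gene, *Notch3* (0.25, limma adjusted p = 0.0303 over 20429 genes), which lies under the minimum and was picked after its value was seen. With the replicate number as a block 202 genes were called against both controls (509 in the reported fit), 1 against each control alone and 0 members, with *Hey1* at a limma adjusted p of 0.0556 and *Dtx1* at 0.0723. Deviations of same-numbered libraries correlated between -0.040 and 0.123, not all above 0.1, so the numbers were not treated as a pairing. Leaving out single libraries gave 9 to 408 genes against both controls, 0 to 215 against ECtrl, 1 to 218 against EfCtrl, 0 to 4 between the controls, 0 to 2 members and 0 other pathway genes. Against both controls the count was 337 without ECtrl replicate 1, 149, 237 and 101 without EfCtrl replicates 1, 2 and 3, 375 and 289 without E3KO replicates 1 and 2 and 9 without E3KO replicate 3. Without 1 library the sign against ECtrl turned for *Lfng*, which ranged from -0.84 to 0.050 (positive without ECtrl replicate 1), and for *Nrarp*, which ranged from -0.047 to 0.13 (negative without ECtrl replicate 3 and, at -0.0075, without E3KO replicate 3). Median-ratio scaling moved the median of all genes from -0.08 to 0.01 and the share of calls that were higher from 32.0% to 46.4%, and centring gave -0.01 and 43.8%. The cause of these changes was not tested. Where a gene lies under 1 FPKM, depth limits what can be compared.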
